A study of Mus musculus with 12 samples.

Results

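The array of neural progenitor cells given a Pax6 open reading frame was set against the 5 arrays of the series most like it, those of cells given Esx1, Crebzf, Pdx1, Sox11 or Zfp451, called the reference arrays here. Members are genes whose level on the Pax6 array lay at least 1 log2 (2-fold) beyond the levels on all 5 reference arrays, on the same side, with the probe well above background on the brighter side. Of 19752 genes tested, 276 were members, 149 higher (0.754% of the genes tested) and 127 lower (0.643%). The members were thus chosen by their levels on these 6 arrays, so those levels are given as a description, with no test. The genes nearest the limit are given without clones, unnamed transcripts, predicted or RIKEN genes and odorant or vomeronasal receptors. Just inside the limit stood Tgm5 and Defb22, with gaps to the nearest reference array of 1.001 and 1.008 log2. Just outside it stood Prf1 and Tepp, with 0.9986 and 0.9923. Among lower genes the nearest inside were Tmem47 and Cytl1, with gaps of 1.008 and 1.0097, and the nearest outside were Pid1 and Ttc9, with 0.9985 and 0.9963.

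All 12 samples of the series are neural progenitor cells of the mouse strain 129/Ola, each on 1 one-colour (Cy3) Agilent array. Retroviruses made from the vector pMXs-IRESNeo carried 1 of 10 transcription factors or EGFP, at a titre giving expression in about 95% of cells. G418, which kills cells that lack the neomycin resistance gene of the vector, was added at 24 h and cells were harvested at 72 h. For the mock culture, virus and G418 treatment were not given in the sources used here. The Pax6, EGFP, mock and Hmga2 arrays shared 1 slide (called slide mates here). Esx1 stood on a second slide with Gatad2b, Etv6 and Nfxl1, and the other 4 reference arrays filled the last of the 3 slides. The Pax6 array therefore shared no slide with any reference array, and slide and insert cannot be told apart in that contrast. Each group held 1 array, so there are no replicates, and the SD given over the 5 reference arrays spans 5 different inserts.

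Pax6 is a paired-box and homeobox transcription factor that specifies the eye and patterns the forebrain, where radial glial progenitors need it to make neurons. Fos and Fosb are subunits of the transcription factor AP-1 and are induced within minutes of a growth signal. Interferon-stimulated genes are switched on by signals from interferon receptors, whereas ATF4 drives genes for making and importing amino acids when cells are short of them.

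Levels are log2 intensities relative to the 75th percentile of the array, so that 0 is that percentile, and values under the dimmest signal well above background are raised to that floor, between -6.96 and -6.62 on the 6 arrays. The 75th percentile of signal was 823 to 1026 units, and 62.5% to 69.1% of probes were well above background. The number of arrays limits the precision. Over all genes tested, the median absolute difference between the Pax6 array and the mean of the 5 was 0.18, against 0.46 between the Pax6 array and the mean of its slide mates. The Pax6 level was nearer to the mean of the 5 in 73.2% of genes. The median SD over the 5 reference arrays was 0.12.

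The labelled cell type was checked against neural progenitor markers. On the Pax6 array Vim, an intermediate filament of progenitors, stood at 6.48, Nes, the filament nestin, at 1.92 and Sox2, a progenitor transcription factor, at 1.21. Olig2 at -6.28 and Sox1 at -5.26 lay near the floor, and the fibroblast collagens Col1a2 at 6.99 and Col1a1 at 5.53 were among the brighter markers. No neural progenitor marker of 16 tested was a member. Gfap and Aqp4, defining markers of astrocytes, and Dcx, a defining marker of young neurons, were not well above background on any of the 6 arrays.

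Pax6 itself was not a member. Its brightest probe, on chromosome 2 at 105547907 to 105547966 in mm7, read -1.27 on the Pax6 array and -1.08 to -0.84 on the reference arrays. A second probe read -2.55 against -2.56 to -2.14. The last, above background on only 2 of the 12 arrays, read -5.17 against the floor on all 5 reference arrays, and -5.19 on the mock array. The retroviral insert holds only the open reading frame, and whether these probes lie in it was not established here, so they check the label in neither direction. None of 22 tested genes regulated by Pax6 or of the eye field was a member. Their median difference from the mean of the 5 was 0.02, beside 0.01 over all genes tested.

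Among higher members well above background on all 6 arrays, the AP-1 genes Fosb and Fos had the largest differences from the mean of the 5, apart from the clone AK038277, which lay between them at 2.90 log2. Fosb read -0.60 on the Pax6 array, -3.78 on Esx1, -4.11 on Crebzf, -4.14 on Pdx1, -4.39 on Sox11 and -4.33 on Zfp451. On the slide mates it read -3.71 (EGFP), -3.34 (mock) and -2.94 (Hmga2), so the Pax6 array was the highest of these 9 arrays by over 2 log2, and the reference arrays did not stand above the slide mates. The difference from the mean of the 5 was 3.55 log2 (11.7-fold, SD over the 5 of 0.24). Fos read 0.98 on the Pax6 array, and -1.43, -2.03, -1.83, -2.0 and -1.77 on Esx1, Crebzf, Pdx1, Sox11 and Zfp451. It read -4.22, -4.32 and -4.76 on EGFP, mock and Hmga2. The Pax6 array stood 2.80 log2 above the mean of the 5 (6.95-fold, SD 0.24), and the reference arrays in turn stood above the slide mates. In bulk RNA, more RNA of a gene per cell and more cells that express it cannot be told apart. The Fos probe lies on chromosome 12 at 83478431 to 83478490 and the Fosb probe on chromosome 7 at 16985502 to 16985561 in mm7.

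The promoter of Fos, from 250 bases before to 50 after the start in the RefSeq annotation of GRCm38.p6 (chr12:85473640-85473939, plus strand), is shown as an example of an AP-1 member whose promoter holds the motif searched. Capitals mark TGACG, the core of the cAMP response element, searched on both strands.
Fos: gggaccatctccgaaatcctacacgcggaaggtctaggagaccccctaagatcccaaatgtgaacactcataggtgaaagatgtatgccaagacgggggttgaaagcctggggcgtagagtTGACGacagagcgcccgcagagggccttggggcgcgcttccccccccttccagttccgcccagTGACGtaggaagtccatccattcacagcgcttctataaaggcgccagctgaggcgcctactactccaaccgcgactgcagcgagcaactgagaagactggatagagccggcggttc
It holds 2 matches, and the Fosb promoter also holds the motif, which 20.8% of 32851 mouse promoters of this length have. A match describes the letters in the window and shows no binding.

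The other immediate early genes, a class transcribed at once after a stimulus without new protein synthesis, showed smaller differences. Of 28 tested, Fos and Fosb were higher members and none was a lower member. The Pax6 array was above all 5 reference arrays in 14 and below all 5 in 4, beside 31.2% and 27.1% of all genes tested, and the median difference was 0.18. Nr4a1, an orphan nuclear receptor, missed the limit, with 3.96 on the Pax6 array, 2.78 to 3.15 on the reference arrays and 2.98 to 3.12 on the slide mates. Egr1, a zinc-finger factor of the same response, read 4.26 against 3.67 to 3.96, and on the slide mates 1.91 to 2.77. Jun, the usual partner of Fos, read -0.62 against -0.81 to -0.62, and Atf3, induced by stress, read -3.31 against -3.03 to -2.86.

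**Figure D1:**
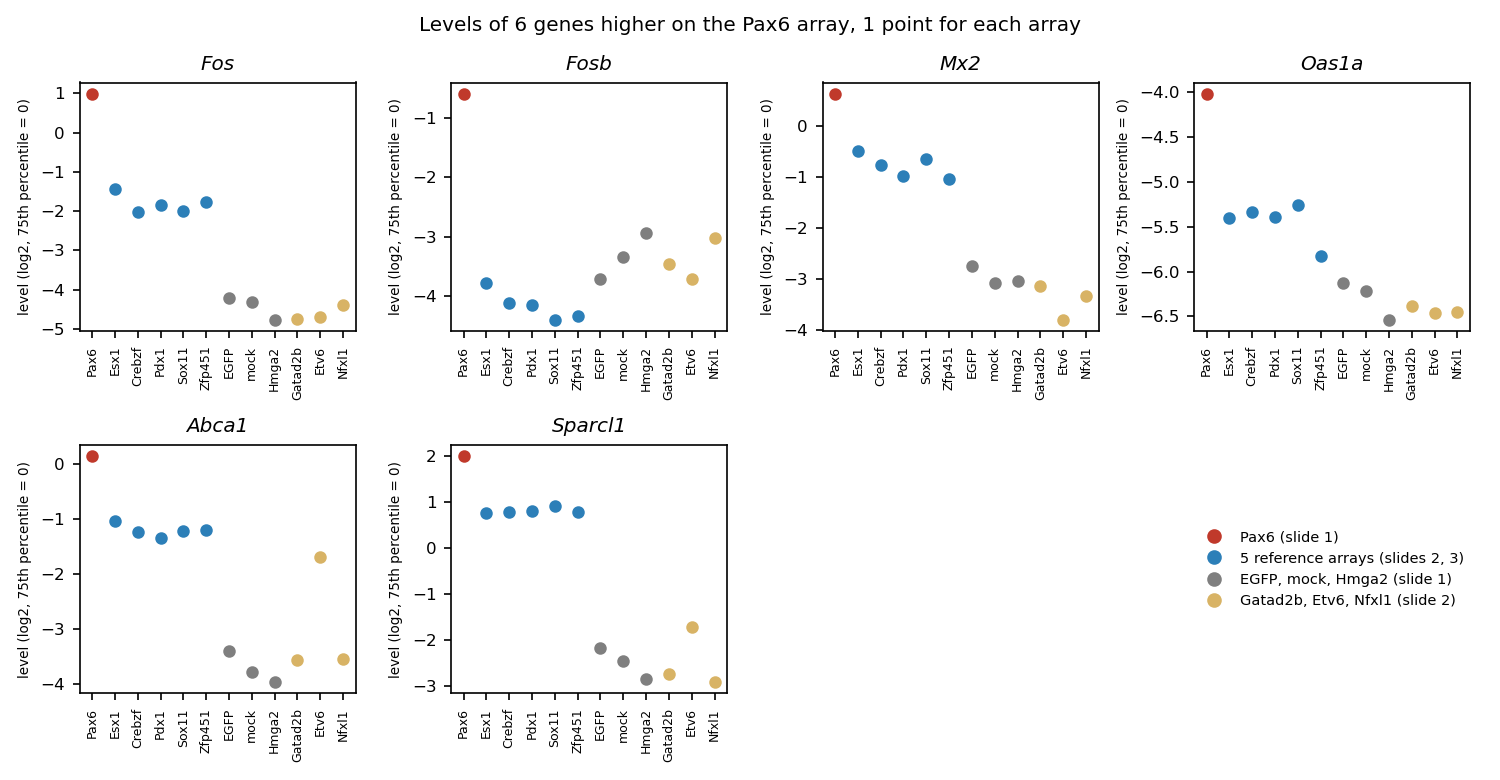
Levels (log2, 75th percentile of the array at 0) of Fos, Fosb, Mx2, Oas1a, Abca1 and Sparcl1, 1 point for each of the 12 arrays, coloured by slide and set; each panel has its own vertical scale. The Pax6 point is the highest in every panel, and in all but Fosb the 5 reference arrays lie above the 3 slide mates.

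Interferon-stimulated genes stood higher on the Pax6 array as a group. Of 43 tested, 5 were higher members (11.6%, beside 0.754% of all genes) and none was lower. The Pax6 array was above all 5 reference arrays in 35 and below all 5 in 5, again beside 31.2% and 27.1% of all genes. The median difference from the mean of the 5 was 0.55, from -0.45 for Cmpk2 to 1.44 for Oas2 and Mx1. Applied to each reference array against the other 5 arrays of the 6, the same median ranged from -0.20 to -0.03. Those 5 include the Pax6 array, so its high levels enter each of these medians. The list was chosen with earlier results of these data known.

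The members were the antiviral effectors Mx1, Mx2, Oas1a and Oas2, and Iigp1. Mx2, a dynamin-like GTPase that blocks viruses, read 0.62 on the Pax6 array against -0.50, -0.77, -0.98, -0.66 and -1.05 on Esx1, Crebzf, Pdx1, Sox11 and Zfp451, and -3.07 to -2.75 on the slide mates. Its difference was 1.42 log2 (2.67-fold, SD 0.23). Mx1, its relative, read -2.78 against -4.40 to -4.01. Oas1a and Oas2, which make the oligoadenylate signal that activates RNase L, read -4.02 against -5.83 to -5.26 and -3.63 against -5.27 to -4.82. Iigp1, an immunity-related GTPase, read -0.48 against -1.75 to -1.5. On every one of the 5 genes the reference arrays in turn stood above the 3 slide mates, where Oas2 was not above background. Mx1, Oas1a, Oas2 and Iigp1 were not members with the normexp background correction, and Mx2 and Iigp1 were not with scaling to the median.

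Further interferon-stimulated genes lay just under the limit. The ubiquitin-like modifier Isg15 read 2.01 against 0.63 to 1.10, Ifit3, an RNA-binding antiviral protein, 1.59 against 0.28 to 0.61, and Usp18, which removes Isg15, -0.02 against -1.35 to -0.82. Irf7, the factor that amplifies the response, read -2.82 against -4.08 to -3.64. Irf9, which carries the signal to the promoters of these genes, differed less, at 0.46 against 0.02 to 0.20. Rsad2 (viperin) at -3.35 and Gbp2 at 0.74 were below all 5. None of 20 tested ligands, receptors and kinases of the pathway was a member, and their median difference was 0.05. Ifnb1, the interferon beta gene, read -6.37 against -6.96 to -6.62, near the floor.

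Microglia and macrophages, which can carry interferon signatures, were checked by 14 markers. Of these, 6 were not above background on any of the 6 arrays, among them Itgam, Tyrobp and C1qa, and none of the other 8 was a member. The summed linear level of the 8 (75th percentile at 1) was 0.464 on the Pax6 array, 0.352 to 0.401 on the reference arrays and 0.449 to 0.50 on the slide mates. Its part in the interferon result was not tested.

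The Oas1a promoter (chr5:120907476-120907775, minus strand, GRCm38.p6, RefSeq) is the only one of the 5 members in the promoter table, and is shown for the motif in capitals, GAAA followed by any 2 bases and GAAA again, a form of the interferon-stimulated response element.
Oas1a: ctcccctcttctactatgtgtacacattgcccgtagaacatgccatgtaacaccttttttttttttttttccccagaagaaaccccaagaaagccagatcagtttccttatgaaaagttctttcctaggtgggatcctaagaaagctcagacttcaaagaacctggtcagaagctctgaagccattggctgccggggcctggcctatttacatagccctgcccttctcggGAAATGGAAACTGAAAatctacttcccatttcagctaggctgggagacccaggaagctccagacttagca
The capitals hold 2 matches that overlap. Over the tested list, 17 of 29 genes with a promoter sequence held the motif on either strand, against 3.44% of 32851 promoters. Over all 276 members, 6 of the 154 genes with a promoter sequence held it. The 29 genes had 33 promoters and the 154 had 179, whereas the share is over single promoters.

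**Figure D2:**
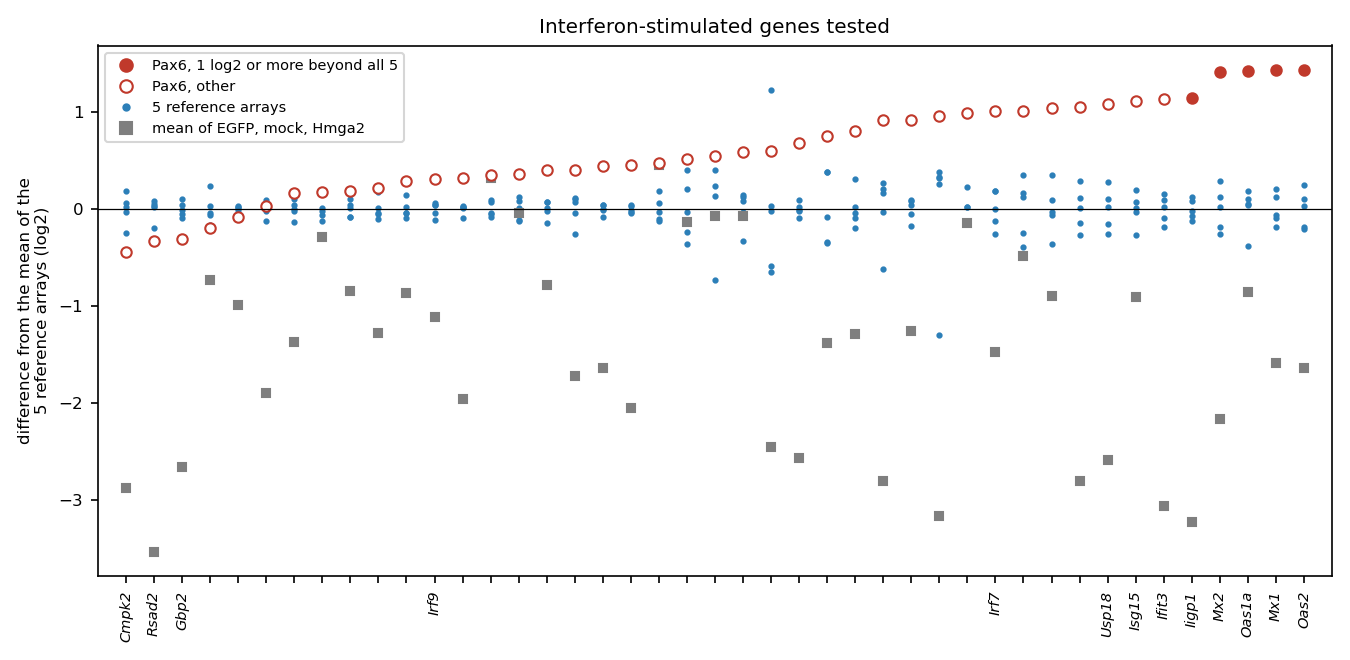
Difference from the mean of the 5 reference arrays (log2) for the 43 interferon-stimulated genes tested, ordered by the Pax6 array (red; filled for members), with names for the genes described in the text, with each reference array (blue) and the mean of EGFP, mock and Hmga2 (grey squares). The red points are above all blue points for 35 genes, and most grey squares lie below them.

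Abca1, which exports cholesterol to apolipoproteins and is a target of the liver X receptors, read 0.13 on the Pax6 array. It read -1.04, -1.24, -1.35, -1.22 and -1.21 on Esx1, Crebzf, Pdx1, Sox11 and Zfp451, and -3.41, -3.78 and -3.97 on EGFP, mock and Hmga2. The difference was 1.34 log2 (2.54-fold, SD 0.11), and the 3 sets of arrays did not overlap. Its close relative in lipid efflux, Abcg1, missed the limit at 0.39 against -0.69 to -0.54. Apoe, another target and a lipid carrier, was lower, at 2.78 against 3.37 to 3.63. Of further targets, Scd1 read 3.38 against 3.12 to 3.24 and Srebf1 read 5.38 against 4.94 to 5.14. Abca1 was the only member among 20 tested genes of this list, whose median difference was 0.17. The Pax6 array was above all 5 reference arrays in 12 of the 20 and below all 5 in 2, beside 31.2% and 27.1% of all genes. None of 24 cholesterol synthesis genes was a member, with a median of -0.06.

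Sparcl1, a secreted matrix protein made by astrocytes, read 2.0 on the Pax6 array and 0.76, 0.80, 0.80, 0.92 and 0.78 on the reference arrays. On the slide mates it read -2.18, -2.47 and -2.86. The difference was 1.19 log2 (2.28-fold, SD 0.06), and another probe of the gene was also beyond all 5. With scaling to the median, Sparcl1 was not a member. It was the only member among 13 tested astrocyte markers, whose summed linear level was 91.6 on the Pax6 array, 80.9 to 87.8 on the reference arrays and 41.0 to 43.3 on the slide mates. That sum includes Sparcl1 itself, which the rule chose, so it is no separate reading of astrocytes. The Pax6 array was above all 5 reference arrays in 7 of the 13 and below all 5 in 2. The shares over all genes were 31.2% and 27.1%. The median difference of the list was 0.21. Among the 7, the glutamate transporter Slc1a3 read 2.75 against 2.11 to 2.41. S100b, a calcium-binding protein of glia, read -1.94 against -2.60 to -2.30. The part of astrocytes in the Sparcl1 value was not tested.

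Most higher members were dim. With the genes split by mean level into 3 bands of equal size, 137 of the 149 were in the dim band, as were 75 of the 127 lower members. Only for the lower members did the rule demand signal above background on all 5 reference arrays. Of the 149 higher members, 99 had at least 1 reference array not well above background, and 59 had none above it. Only 50 were above background on all 6 arrays, 0.292% of the 17133 such genes. By name, 23 were olfactory or vomeronasal receptors, 62 were clones or unnamed transcripts and 64 were other genes. Apart from Fosb, Fos and the clone AK038277, the largest differences belonged to genes not well above background on at least 1 reference array, so their folds are lower bounds. Gucy1a1, a subunit of the nitric oxide receptor guanylate cyclase, read -1.98 and was at least 24.4-fold higher. The liver genes Adh4 (an alcohol dehydrogenase), Cyp7a1 (the rate-limiting enzyme of bile acid synthesis) and Slc10a1 (a bile acid importer) read -2.47, -2.79 and -3.30, at least 20.1-fold, 16.1-fold and 11.3-fold higher. Rit2, a neuronal GTPase, and Zfp641, a zinc-finger protein, were at least 13.5-fold and 13.4-fold higher, and Dmrtc1c1 on the X chromosome at least 12.8-fold. Zfp641 read -3.06 on the Pax6 array but -2.805 on the Etv6 array, which is not among the 6 compared. Tacr2, a tachykinin receptor, Nefh, the heavy neurofilament, and Fbxw27, an F-box protein, read -3.84, -3.85 and -3.92. Crocc2, Slc6a19 (a neutral amino acid transporter of gut and kidney) and Abcg3 read -4.43, -4.52 and -4.52, at least 5.14-fold, 4.84-fold and 4.84-fold higher. The bounds hold for the floored levels only. With normexp the difference was 2.10 log2 for Gucy1a1, 0.74 for Slc6a19 and 0.72 for Abcg3. Tacr2, Nefh, Fbxw27, Crocc2, Slc6a19 and Abcg3 were not members with normexp. For each of these 13 genes, and for Fos and Fosb, no other probe was well above background on any of the 6 arrays. Probes of these genes not above background were not counted.

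Set against the slide mates, 95 of the 149 higher members also stood at least 1 log2 above EGFP, mock and Hmga2 (0.481% of genes tested meet both), 27 of them above background on all 6 arrays. In 3, Pvt1, Mmp28 and the clone AK089570, the slide mates stood above all 5 reference arrays by 1 log2 as well. Krt5, a basal epithelial keratin, read -5.01 against -6.66 to -6.20 but overlapped the slide mates, at -5.77 to -4.72. The within-slide difference takes Pax6 minus the mean of its slide mates, less Esx1 minus the mean of Gatad2b, Etv6 and Nfxl1. It holds the difference between Pax6 and Esx1 that the rule used, and is given as a description: it was 3.11 for Fosb, 2.24 for Fos, 1.96 for Abca1, 1.28 for Sparcl1 and 0.66 for Mx2.

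**Figure D3:**
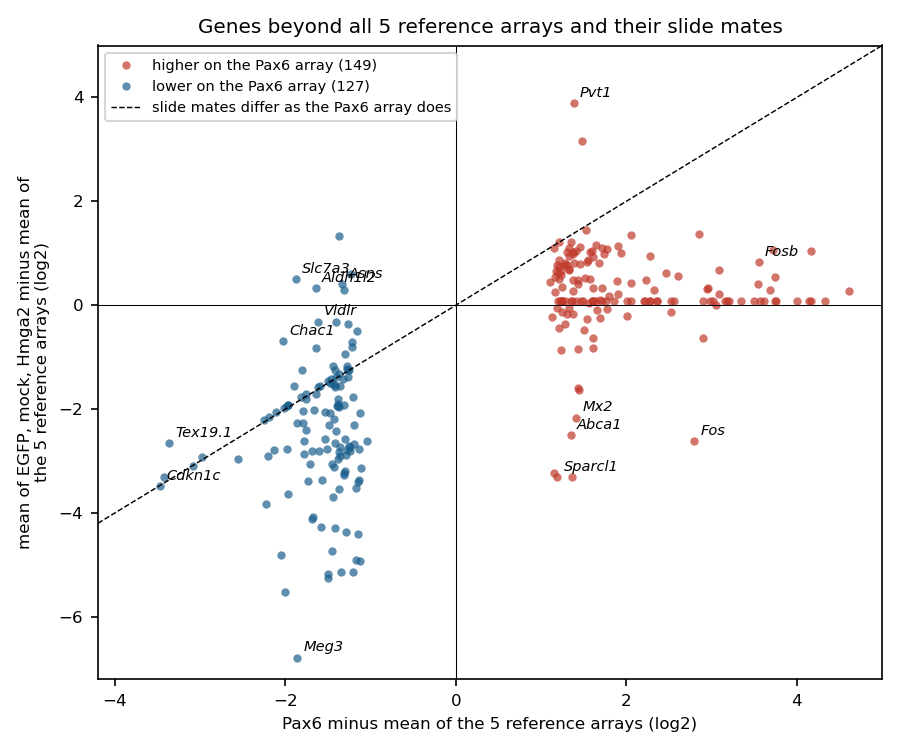
Each of the 276 members by its Pax6 level (horizontal) and the mean of EGFP, mock and Hmga2 (vertical), both as log2 differences from the mean of the 5 reference arrays; on the dashed line the slide mates differ as the Pax6 array does. Higher members (red) lie mostly far below the line, whereas lower members (blue) lie mostly near or below it, with Slc7a3, Asns, Aldh1l2, Vldlr and Chac1 above.

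Of the 127 lower members, 103 were above background on all 6 arrays (0.601% of the 17133 such genes). The rule demanded signal above background on all 5 reference arrays for a lower member, but only on the Pax6 array for a higher one. Brightness therefore cannot be compared between the directions by these counts. The lower members differed in how their slide mates stood. Also in 103 of the 127, EGFP, mock and Hmga2 stood at least 1 log2 below all 5 reference arrays. These are not the same 103 genes: Chac1 belongs only to the first set and Cdkn1c only to the second. Of all genes tested, 8.04% (1588) had slide mates that low, and 1563 of these were above all slide mates on the Pax6 array. Of the 127 lower members 78 were above all slide mates, 49 of them by 1 log2 or more. The share of all genes tested above all slide mates was not counted. Only 8 stood at least 1 log2 below the slide mates too (0.0405% of genes tested): Aldh1l2, Asns, BC051230, Chac1, Prl2c3, Rpp25, Slc7a3 and Vldlr. Of these 8, 5 belong to the ATF4 and amino acid list.

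The ATF4 and amino acid genes were lower on the Pax6 array across the list. Of 41 tested, 6 were lower members (14.6%, beside 0.643% of all genes) and none was higher. The Pax6 array was below all 5 reference arrays in 37 and above all 5 in 1, beside 27.1% and 31.2% of all genes, and it was below all 5 and all slide mates in 35. The median difference from the mean of the 5 was -0.64, and the within-slide median was -0.38. The median difference for each reference array against its other 5 was 0.07 to 0.17. Those 5 include the Pax6 array, so its low levels enter each of these medians. The slide mates stood above all 5 reference arrays in 29 of the 41, so that the Pax6 array was the lowest set and the slide mates usually the highest.

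Chac1, a glutathione-degrading enzyme induced by ATF4, read 0.78 on the Pax6 array. It read 2.65, 2.78, 2.89, 2.87 and 2.84 on the reference arrays and 1.84, 2.13 and 2.37 on EGFP, mock and Hmga2. The difference was -2.03 log2 (4.08-fold lower, SD 0.10), and none of the other 8 arrays came within 1 log2. Asns, which makes asparagine, read 4.27 against 5.67, 5.61, 5.61, 5.58 and 5.52, and 5.95 to 6.04 on the slide mates (2.52-fold lower, SD 0.06). Slc7a3, a cationic amino acid importer, read 0.47 against 2.28 to 2.39, with 2.70 to 2.96 on the slide mates (3.68-fold lower). Aldh1l2, a mitochondrial enzyme of folate metabolism, read -1.60 against -0.05 to 0.10, with 0.28 to 0.54 on the slide mates.

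Vldlr, a lipoprotein and reelin receptor, read -1.74 against -0.31 to -0.04, with -0.55 to -0.29 on the slide mates. Gdf15, a stress-induced hormone, read -2.61 against -1.55 to -1.30, and -2.10 to -1.80 on the slide mates, under 1 log2 away. Atf4 itself read 1.97 against 2.47 to 2.82 and 2.84 to 3.04. Its targets Trib3, a pseudokinase, and Sesn2, which senses leucine, read 0.29 against 1.20 to 2.0 and 1.70 against 2.09 to 2.77. The serine and one-carbon enzymes Mthfd2, Shmt2, Psph and Psat1 differed by -1.15, -0.84, -0.81 and -0.70, and the amino acid transporters Slc7a5 and Slc7a11 by -1.05 and -0.73. Ddit3 (CHOP) read -0.15 against 0.24 to 0.42, but was lower still on the slide mates, at -0.86 to -0.72. None of 19 ER chaperones was a member, with a median of -0.18.

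Promoters of 3 lower members that hold TGATGNAA, a form of the C/EBP-ATF response element, are shown with the match in capitals on whichever strand it lies (RefSeq, GRCm38.p6: Chac1 chr2:119350992-119351291 plus, Asns chr6:7693160-7693459 minus, Vldlr chr19:27216770-27217069 plus).
Chac1: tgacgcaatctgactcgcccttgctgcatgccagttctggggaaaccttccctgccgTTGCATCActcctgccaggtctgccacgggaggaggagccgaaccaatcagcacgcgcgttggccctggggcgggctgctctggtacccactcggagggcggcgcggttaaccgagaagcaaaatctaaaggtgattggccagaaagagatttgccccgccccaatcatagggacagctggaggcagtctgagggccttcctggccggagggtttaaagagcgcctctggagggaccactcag
Asns: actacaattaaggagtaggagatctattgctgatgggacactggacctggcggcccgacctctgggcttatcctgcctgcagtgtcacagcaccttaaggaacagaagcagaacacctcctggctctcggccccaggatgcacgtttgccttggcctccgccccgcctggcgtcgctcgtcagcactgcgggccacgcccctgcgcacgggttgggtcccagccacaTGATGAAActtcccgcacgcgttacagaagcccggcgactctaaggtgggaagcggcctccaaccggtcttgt
Vldlr: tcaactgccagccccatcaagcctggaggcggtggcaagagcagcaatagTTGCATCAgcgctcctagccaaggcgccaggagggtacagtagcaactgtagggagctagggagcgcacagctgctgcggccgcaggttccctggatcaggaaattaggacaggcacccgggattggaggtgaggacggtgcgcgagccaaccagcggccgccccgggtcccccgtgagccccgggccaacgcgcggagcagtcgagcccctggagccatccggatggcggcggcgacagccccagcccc
These were 3 of the 4 amino acid members with a promoter sequence. Over the tested list 12 of 34 held the motif, against 3.97% of all 32851 promoters, and over all 276 members 7 of the 154 with a promoter sequence. The 34 genes had 40 promoters and the 154 had 179, whereas the share is over single promoters.

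**Figure D4:**
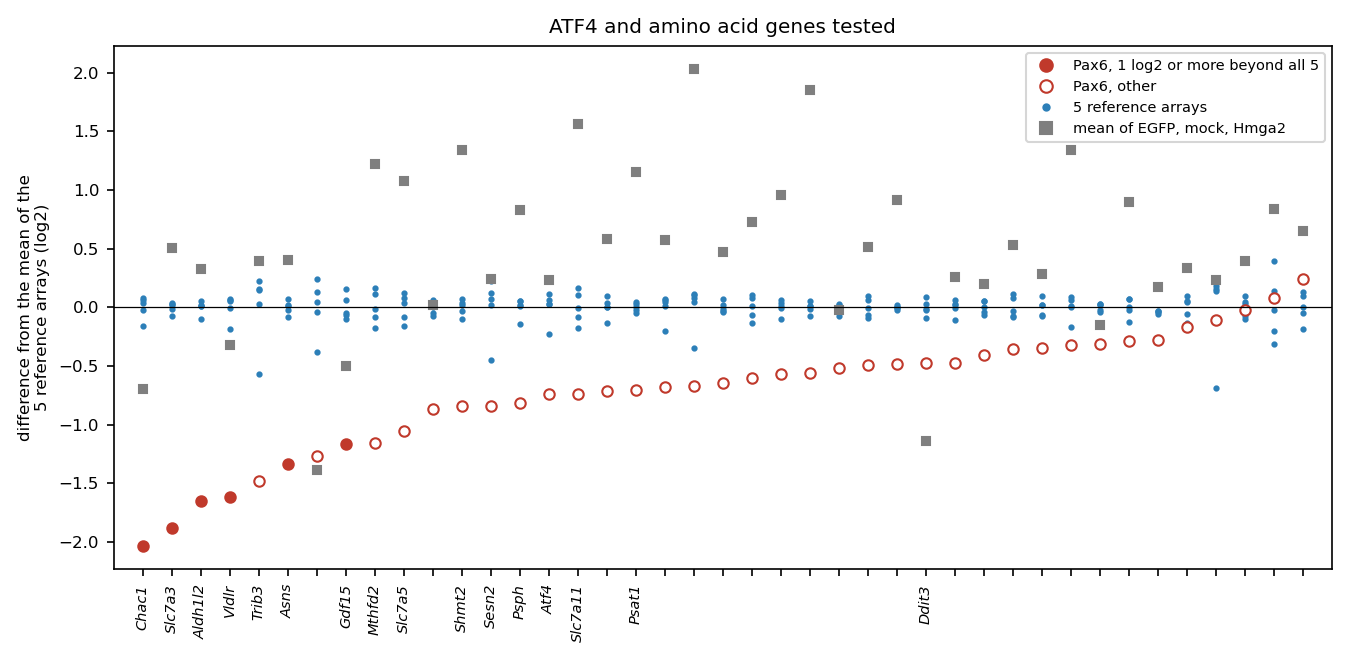
Difference from the mean of the 5 reference arrays (log2) for the 41 ATF4 and amino acid genes tested, ordered by the Pax6 array (red; filled for members), with names for the genes described in the text, with each reference array (blue) and the mean of EGFP, mock and Hmga2 (grey squares). The red points lie below all blue points for 37 genes, while most grey squares lie above them.

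At other lower members with large gaps, described next, the slide mates were at least 1 log2 below all 5 reference arrays too. Tex19.1, a germ cell and placental gene on chromosome 11, read -6.13 on the Pax6 array, -2.77, -2.70, -2.80, -2.73 and -2.80 on the reference arrays and -5.70, -5.27 and -5.29 on the slide mates (10.3-fold below the mean of the 5). Cdkn1c, the imprinted cyclin-dependent kinase inhibitor p57, was not above background on the Pax6 array or its slide mates, and read -3.70 to -2.70 on the reference arrays, at least 11.1-fold higher there. With normexp its difference was -1.24 log2 and it was not a member. Pitx1, a homeobox factor of the hindlimb and pituitary, read -6.69 against -3.81 to -3.45, and Calb1, a calcium buffer of neurons, -6.30 against -3.98 to -3.44. Erg, an ETS factor of endothelium, read -3.23 against -1.26 to -1.03 and -6.34 to -5.40 on the slide mates. Igfbp2, which binds insulin-like growth factors, read -3.33 against -1.5 to -1.34 and -3.30 to -2.68. Cyfip2, a WAVE complex protein, read -5.70 against -3.71 to -3.30, while Dnajb3, a co-chaperone, and Tox3, an HMG-box factor, were not above background on the Pax6 array.

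The neuron, fibroblast, epithelial, muscle and Hox lists each had 1 lower member, of 14, 14, 8, 12 and 21 genes tested. The share over all genes was 0.643%. The epithelial list also had Krt5 as a higher member, beside 0.754% of all genes. Its median difference was -0.52, with 6 genes below all 5 reference arrays and 1 above. The medians of the other lists were -0.20 to 0.03. Stmn2, a microtubule regulator of neurons, read -3.91 against -2.40 to -2.29, and Thy1, a surface protein of neurons and fibroblasts, -2.20 against -0.79 to -0.48. Cldn6, an embryonic epithelial claudin, read -6.21 against -5.11 to -4.63, Acta1, skeletal muscle actin, -4.50 against -3.19 to -3.03 and Hoxd9 -6.35 against -4.85 to -4.43. Stmn2 and Thy1 stood above all slide mates, whereas Cldn6 stood just below them.

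Imprinted genes of the Dlk1-Meg3 cluster on chromosome 12, noticed after their values were seen, were at intermediate levels. Meg3, a long noncoding RNA, read 1.35 on the Pax6 array, 3.14, 3.26, 3.28, 3.27 and 3.1 on the reference arrays and -3.30, -3.68 and -3.75 on the slide mates. Dlk1, a Notch-like membrane protein, read -2.72 against -1.48 to -0.90 and -6.22 to -5.71. Mirg, a host RNA of microRNAs, read -3.85 against -2.74 to -2.23 and was not above background on the slide mates. At all 3 the Pax6 array lay between the other sets without overlap.

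Of the 127 lower members 19 were on the X chromosome (15%), as were 3.50% of the 19605 tested genes with a position and 3 of 148 higher members (2.03%). This count was also made after the values were seen. The X-linked members included Fmr1nb, a testis antigen, and Gpc3, a glypican that restrains growth, neither of them above background on the Pax6 array. Trap1a, a tumour rejection antigen, read -5.10 against -3.02 to -2.70, and Sytl4, an effector of secretory granules, -6.00 against -4.00 to -3.69. Gria3, an AMPA receptor subunit, was at the floor of the Pax6 array. Capn6, a calpain-like protein, read -1.38 against -0.15 to 0.24 and -5.27 to -5.09, and Mageh1 -0.02 against 1.0 to 1.39 and -2.40 to -2.32. At 18 of the 19, all but Slc7a3, the slide mates also lay 1 log2 or more below all 5, beside 103 of the 127. At 14 of the 19 the Pax6 array was above all slide mates, beside 78 of the 127.

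**Figure D5:**
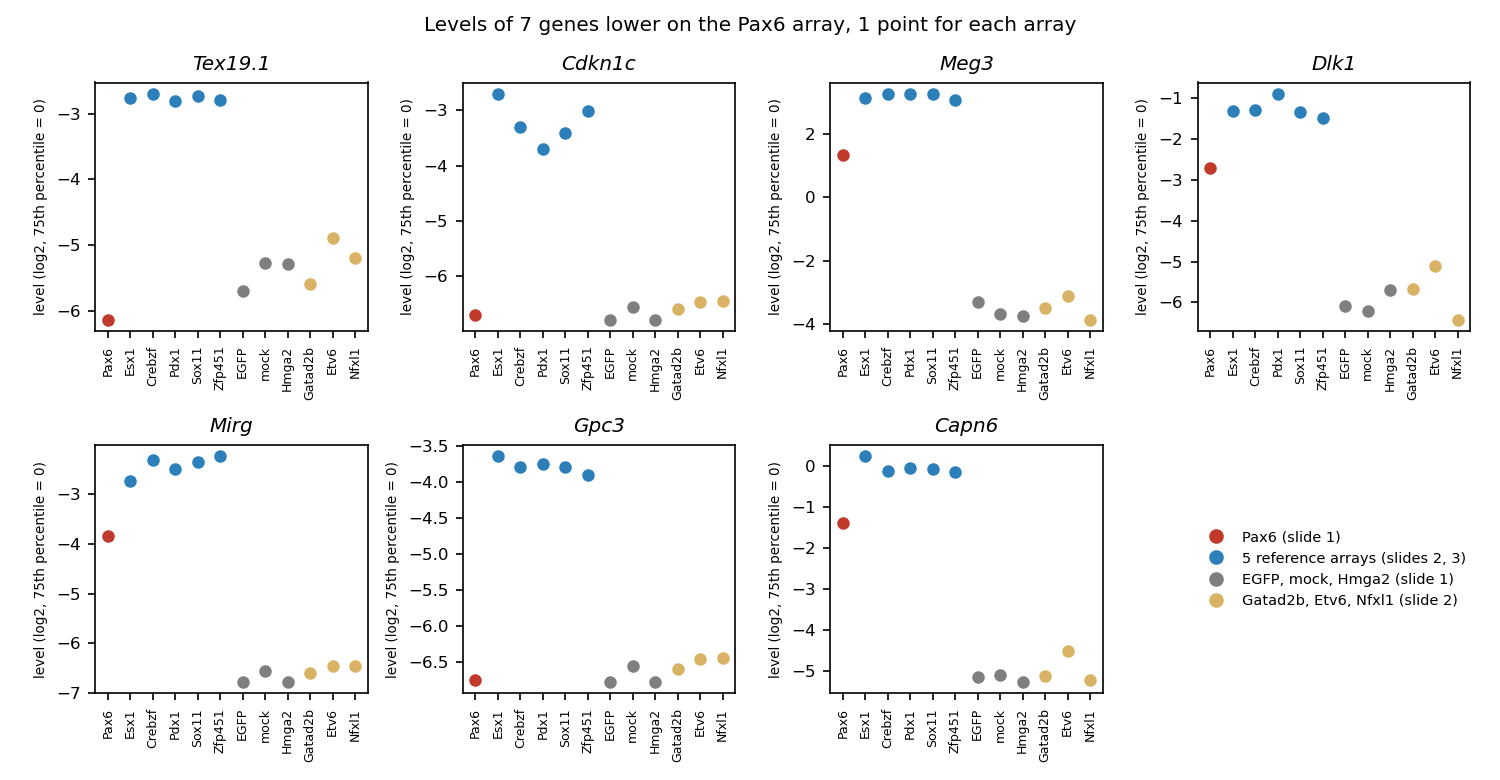
Levels (log2, 75th percentile of the array at 0) of Tex19.1, Cdkn1c, Meg3, Dlk1, Mirg, Gpc3 and Capn6, 1 point for each of the 12 arrays; each panel has its own vertical scale. The Pax6 point lies with or below the slide mates for Tex19.1, Cdkn1c and Gpc3, and between them and the 5 reference arrays for Meg3, Dlk1, Mirg and Capn6.

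More widely, 1588 genes (8.04%) had all 5 reference arrays at least 1 log2 above all 3 slide mates. The Pax6 array was above all slide mates in 1563 of them and below all 5 reference arrays in 878 (55.3%, beside 27.1% of all genes tested), and 103 (6.49%) were lower members. In the other direction, 671 genes (3.4%) had all 3 slide mates at least 1 log2 above all 5 reference arrays. Whether a slide effect has a part in this was not tested. Under the same rule each other array of the 6 was set against its other 5. Esx1, also alone on its slide among the 6, had 68 higher (0.344%) and 184 lower genes (0.932%). On the last slide Crebzf had 72 higher (0.365%), Pdx1 64 (0.324%), Sox11 53 (0.268%) and Zfp451 45 (0.228%). Among these 4 the only lower gene was 1 on Pdx1 (0.00506%).

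Growth genes differed less. None of 22 mitotic or 20 DNA replication genes was a member, but the Pax6 array was below all 5 reference arrays in 16 and 19 of them, beside 27.1% of all genes, with medians of -0.19 and -0.26. On the slide mates the medians stood above the mean of the 5, by 0.52 and 1.0. Of 14 reference genes none was a member, with a median of -0.05.

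Scaling mattered for the balance of directions. Of the members 54.0% were higher, but 29.7% after quantile normalization (95 higher, 225 lower) and 30.4% with scaling to the median (97 and 222), under which the median of all genes moved from 0.01 to -0.15. The medians of the interferon and amino acid lists kept their sign under both, at 0.51 and -0.62 after quantile normalization and 0.39 and -0.80 with scaling to the median.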

How the data were processed

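Each of the 12 arrays was read with Agilent Feature Extraction, version 10.7.3.1 in the headers. Per the file headers, the authors' deposited values are linear intensity values with background subtracted, and the deposited value table equals them on all 45018 spots of every array. Per the file headers, positions of probes refer to mm7. Whether the authors normalised further was not given in the sources used here.

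Outlier spots were dropped and repeats averaged (41174 probes, 43379 spots), and 171 probes with no usable spot on an array were left out. Names came from RefSeq accessions (22951 probes), symbols (6659), synonyms (3109) or the files (8455). Intensities were put on the log2 scale relative to the 75th percentile of the array and floored. The probe with the highest mean stood for a gene, and genes above background on at least 1 of the 6 arrays were tested. With 1 array a group, no p-value was computed.

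Named were the 15 genes in each direction with the largest gap and no opposing probe (without clones, predicted or RIKEN genes and odorant receptors). Only probes well above background on at least 1 of the 6 arrays counted as opposing. Also named were Fos, Fosb, Mx2, Abca1 and Sparcl1, members in a list, and the Pax6 probes. Other named genes come from the lists, from counts of 8 or fewer, or from inspection of the values (the imprinted and X-linked genes). The members and lists were chosen with earlier results of these data known. Tools were Python 3.11.15, numpy 2.4.6, pandas 2.3.3, matplotlib 3.10.9, R 4.3.3 and limma 3.58.1. Alternatives were quantile normalization, normexp (offset 50), scaling to the median, no floor, the mean of all probes, a limit of 1.5 log2, genes above background on all 6 arrays, within-slide differences, a demand to stand beyond the slide mates too, and leaving out each reference array.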

Additional observations from a re-analysis of the deposited data

How the results depend on the processing

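Against 149 higher and 127 lower genes, quantile normalization gave 95 and 225, normexp 27 and 28, scaling to the median 97 and 222, and a limit of 1.5 log2 60 and 40. No floor gave 249 higher genes, and the filter for signal above background on all 6 arrays 50. Within-slide differences gave 600 and 360, and the demand to stand beyond EGFP, mock and Hmga2 too gave 95 and 8. For the counts beyond the slide mates (95 and 8), the alternatives were chosen after seeing the data: quantile normalization gave 18 lower, normexp 25 and 5, scaling to the median 63 and 19, a limit of 1.5 log2 48 and 2, and the filter on background 27 higher. Fewer genes pass a stricter limit or filter by construction; for the others the cause was not tested. Leaving out 1 reference array gave 157 to 209 higher and 130 to 142 lower genes, and 96 to 108 and 8 to 10 beyond the slide mates.

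Of the 48 named members, 46 kept their call after quantile normalization, 45 with scaling to the median (Mx2, Sparcl1 and Iigp1 did not), 41 with the mean of all probes, 34 at 1.5 log2, 23 with normexp and 48 without the floor. Fos, Fosb, Abca1, Chac1, Asns, Aldh1l2, Slc7a3 and Vldlr kept theirs with normexp too. No paired analysis was possible because each group held 1 array. Signal over background limits the dim higher members, most of which have only a bound.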
